A study of Mus musculus with 35 samples.

Results

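The mammalian circadian clock is a transcriptional loop in which the proteins of the Period genes (Per1, Per2, Per3) and of the cryptochrome genes (Cry1, Cry2) repress the activators that switch these same genes on. The transcripts of these 5 repressors were followed in regulatory T cells (Tregs), a class of CD4+ T cell that holds immune responses in check, from visceral adipose tissue (VAT) and from spleen. The 5 genes were taken by symbol from the 55011 gene symbols of the count table. All 5 passed the filter on low counts that left 15910 genes for testing, with both tissues in 1 fit and with each tissue alone.

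CD4+ CD25+ Tregs were sorted in 2 rounds, 1000 cells to a library, from wild-type C57BL/6 males. The mice were retired breeders older than 35 weeks, under a cycle of 12 h light and 12 h dark, and no group carried a transgene or received a treatment according to the labels. Cells were taken every 4 h, at 0, 4, 8, 12, 16 and 20 h of Zeitgeber time (ZT), which counts from lights on, so that ZT12 is lights off. There were 3 libraries for each tissue and time and 2 for VAT at ZT20, 35 in all (17 VAT, 18 spleen), named below by their replicate letters A to D. Whether replicates were separate or pooled animals is not in the labels, and the p-values therefore rest on a spread among samples that may be technical.

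Period and cryptochrome genes are driven by the activator pair of Arntl (BMAL1) and Clock or Npas2, which binds E-box elements, and their proteins return to the nucleus to silence that pair. D-box elements are read by the PAR-type factors Dbp, Tef and Hlf and by the repressor Nfil3, and ROR and REV-ERB receptors act on a further element of the loop. Per1 and Per2 also answer acutely to cyclic AMP and to glucocorticoids, which makes them entry points for signals that set the phase of peripheral clocks, while Per3 is largely an output. Casein kinases mark PER proteins for decay.

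The members lie on 5 chromosomes (GRCm38, GENCODE M21, whole genes). Per1 is at chr11:69095217-69109960 on the plus strand, and the other 4 are on the minus strand: Per2 at chr1:91415982-91459324, Per3 at chr4:151003652-151044665, Cry1 at chr10:85131700-85185064 and Cry2 at chr2:92403646-92434043. Per3 lies inside the span of Camta1 on the same strand, with 0 shared exon bases. Cry2 shares 295 exon bases with the antisense transcript D930015M05Rik, and since the strand setting of the counting is not given in the sources used here, reads of the pair cannot be told apart. D930015M05Rik had 0.480 ± 0.677 CPM in VAT and 1.34 ± 1.35 in spleen, far below the Cry2 levels given further on.

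The RefSeq promoter table (GRCm38.p6) held 5 promoters for 4 of the 5 members. They were searched on both strands for the E-box CACGTG, the E′-box CACGTT, the D-box TTATGTAA and its variant TTATGCAA, the cyclic AMP response element TGACGTCA and its core TGACG, in windows of 300 bases from 250 before to 50 after the start site. A full cyclic AMP element also counts as a core, and of all 32851 promoters 7.15% held the E-box, 4.68% the E′-box, 0.938% the D-box, 0.743% its variant, 1.79% the full cyclic AMP element and 20.8% its core. The 250 bases before the start site are shown for the members with an E-box or a D-box, since these are the elements through which the clock is known to act, with every match in capitals.
Per1, first promoter, chr11:69098699-69098948, plus strand: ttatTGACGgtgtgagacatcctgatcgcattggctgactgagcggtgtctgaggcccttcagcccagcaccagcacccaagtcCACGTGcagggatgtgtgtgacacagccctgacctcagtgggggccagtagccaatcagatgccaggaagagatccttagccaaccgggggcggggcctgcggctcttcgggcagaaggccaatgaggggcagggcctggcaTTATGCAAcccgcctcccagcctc
Per3, chr4:151044666-151044915, minus strand: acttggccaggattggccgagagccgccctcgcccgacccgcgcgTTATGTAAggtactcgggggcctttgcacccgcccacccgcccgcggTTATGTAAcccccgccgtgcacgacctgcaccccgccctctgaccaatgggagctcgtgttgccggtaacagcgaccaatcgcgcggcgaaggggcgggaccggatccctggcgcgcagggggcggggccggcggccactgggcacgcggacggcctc
Cry1, chr10:85185055-85185304, minus strand: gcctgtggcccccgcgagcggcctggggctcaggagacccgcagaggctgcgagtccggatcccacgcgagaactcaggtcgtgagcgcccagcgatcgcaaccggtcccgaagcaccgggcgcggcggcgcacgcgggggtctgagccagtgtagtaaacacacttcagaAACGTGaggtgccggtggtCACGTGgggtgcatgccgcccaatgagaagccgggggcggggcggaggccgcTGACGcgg

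In the first Per1 promoter the capitals are a core TGACG starting at position −246 from the start site, an E-box at −166 and a D-box variant at −24. Per3 has a pair of D-boxes, at −205 and −158, and no E-box or core TGACG in this window. Cry1 has an E′-box at −79 (read as AACGTG on the printed strand), an E-box at −60 and a core TGACG at −8. The second Per1 promoter held 1 core TGACG, and the Cry2 promoter an E′-box at −166 and a core at −209. None of these 5 windows, of Per1, Per3, Cry1 and Cry2, held the full cyclic AMP element. These matches describe the letters of the windows and no binding was measured here.

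The libraries held 2069319 to 6260185 counts, and members' counts ran from 1 per library (Per2 in VAT) to 1231 (Per1 in VAT), so that precision is lowest for Per2. The markers of Tregs and T cells were present in every library (summed level 4847 to 6466 CPM in VAT and 2502 to 3166 in spleen). Both VAT libraries of ZT20 stood apart in how counts depended on transcript length (slope of the log2 level on log2 length −0.0916 to −0.0788, against −0.0304 to 0.0570 in the other VAT libraries), and counts of genes called over time in VAT depended on them, as given beside those counts. The spleen libraries of ZT20 had slopes of −0.049 to −0.037, against −0.0283 to 0.0583 in the spleen libraries of ZT0 to ZT12. The lowest spleen slope, −0.0656, was in a library of ZT16, where slopes reached 0.0045. Levels below are CPM, counts scaled to the size of the library after TMM correction, given as mean ± SD over libraries, and fold changes and amplitudes are on the log2 scale with their standard errors. A gene is said to pass the test, or to be called, where edgeR's quasi-likelihood test with Benjamini-Hochberg adjustment over all 15910 genes gave an adjusted p under 0.05.

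Averaged over the 6 times, all 5 repressors differed between the tissues, and not in 1 direction: Per1, Per3 and Cry1 were higher in VAT Tregs, and Per2 and Cry2 were lower. Of all genes, 62.2% were called in this comparison (28.4% higher in VAT and 33.8% lower), so that 5 of 5 is read against a high background. Each member kept its direction of means at 6 of 6 times. The median difference of all genes was −0.10.

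Per1, the member with the largest difference, was at 182 ± 36.8 CPM in the 17 VAT libraries and 27.4 ± 6.91 in the 18 spleen libraries, a difference of 2.73 ± 0.07 on the log2 scale (adjusted p = 2.64e-29, edgeR). Its lowest VAT library (114 CPM) stood above its highest spleen library (45.4 CPM), a separation over all times that 10.4% of genes had. Per3 was at 26.5 ± 11.4 CPM in VAT and 8.88 ± 3.86 in spleen, a difference of 1.57 ± 0.16 (adjusted p = 1.00e-10, edgeR), with 13 of 17 VAT libraries above every spleen library.

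Per2 went the other way. It was at 2.72 ± 2.07 CPM in VAT, with 169 counts in all 17 libraries together, and at 8.69 ± 3.60 CPM in spleen, with 592 counts in 18 libraries. The difference was −2.04 ± 0.24 (adjusted p = 2.50e-09, edgeR), and 9 of 17 VAT libraries lay below every spleen library. The paralogs Per1 and Per2, which share much of their sequence and their role, thus differed between the same libraries in opposite directions.

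The cryptochromes showed the same division at a smaller size. Cry1, the stronger repressor of the pair in most clock assays, was at 109 ± 22.1 CPM in VAT and 59.6 ± 14.6 in spleen, a difference of 0.85 ± 0.11 (adjusted p = 1.18e-08, edgeR), with 16 of 17 VAT libraries above every spleen library. Cry2 was at 18.0 ± 5.45 CPM in VAT and 30.6 ± 7.38 in spleen, a difference of −0.80 ± 0.14 (adjusted p = 4.81e-06, edgeR). For Cry2, 8 of 17 VAT libraries lay below every spleen library and the rest overlapped with spleen.

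**Figure D1:**
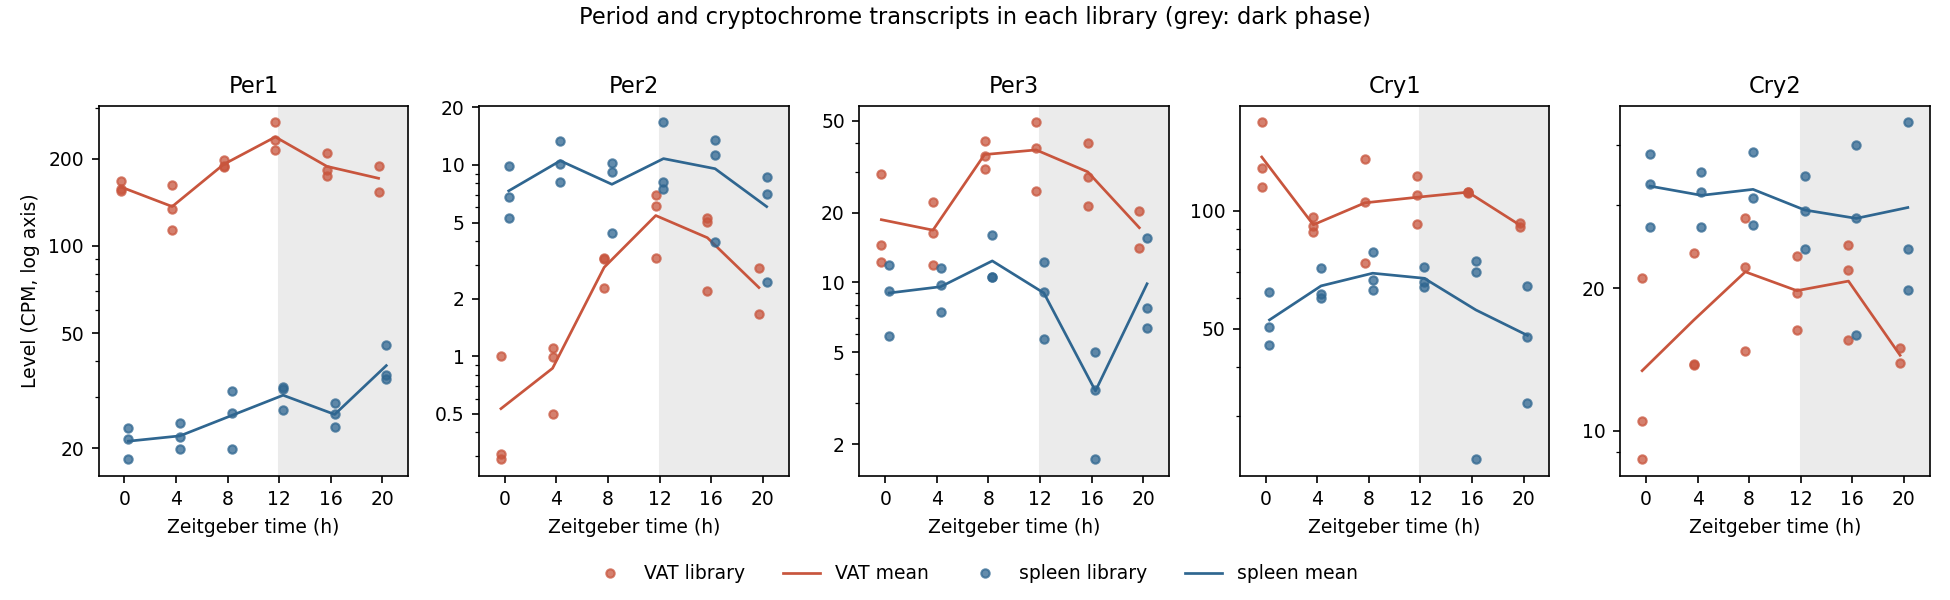
Level of each gene (CPM, log axis) by Zeitgeber time in hours; points are libraries, lines join the means of each time, and grey marks the dark phase. Per1 in VAT lies above spleen at every time (lowest VAT library 114 CPM, highest spleen library 45.4 CPM), and Per2 in VAT climbs from 0.533 CPM at ZT0 to 5.44 CPM at ZT12.

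Per exon length, the makeup of both families differed between the tissues. In RPKM, which is CPM per kilobase of exon, the 3 Period genes summed to 35.5 ± 7.45 in VAT and 7.28 ± 1.33 in spleen, and the cryptochromes to 35.3 ± 6.35 and 22.7 ± 5.11. Per1 made up 91.1% ± 2.95 of the Period sum in VAT and 66.6% ± 8.59 in spleen (SD, n = 17 and 18). Per2 made up 1.22% ± 0.790 in VAT and 20.6% ± 8.23 in spleen, and Per3 7.66% ± 2.52 and 12.8% ± 5.29.

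Cry1 took 91.6% ± 2.93 of the cryptochrome sum in VAT and 78.3% ± 3.89 in spleen. Per length, the ratio of Cry1 to Cry2 ran from 6.30 to 36.5 over the VAT libraries (median 11.8) and from 2.24 to 5.16 over the spleen libraries (median 3.60), with no overlap between tissues. The ratio of Per1 to Per2 ran from 34.8 to 565 in VAT (median 86.0) and from 1.55 to 15.2 in spleen (median 3.36), also with no overlap. Per3 exceeded Per2 per length in every VAT library (2.50 to 61.6 times, median 6.55), while in spleen the ratio had a median of 0.611 (0.0938 to 2.21).

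**Figure D2:**
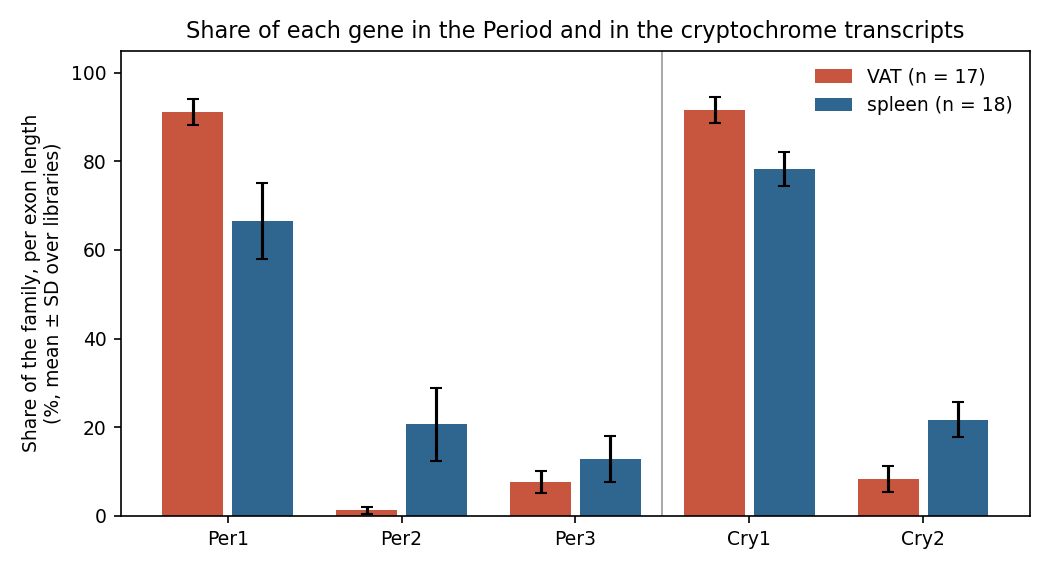
Share of each gene in the summed Period level and in the summed cryptochrome level, per exon length (percent, mean over libraries; error bars are SD; n = 17 VAT and 18 spleen). Per1 and Cry1 hold the larger share in both tissues, and the shares of Per2 (1.22% in VAT, 20.6% in spleen) and of Cry2 are larger in spleen.

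Taken time by time, the comparison of tissues had 30 tests for the 5 members, of which 20 were called. The background of called genes was 30.3% at ZT0, 28.4% at ZT4, 28.3% at ZT8, 28.1% at ZT12, 30.7% at ZT16 and 23.9% at ZT20. Per1 was called at 6 of 6 times, between 2.16 ± 0.17 at ZT20 and 2.96 ± 0.17 at ZT12. Per3 was called at 4 of 6 (ZT0, ZT8, ZT12 and ZT16), and its difference was widest at ZT16, at 3.16 ± 0.43 (adjusted p = 2.41e-07), where spleen libraries had 5.02, 3.44 and 1.72 CPM and VAT libraries 40.3, 28.5 and 21.5.

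Per2 was called at ZT0, ZT4 and ZT8. Its difference was −3.65 ± 0.66 at ZT0 (adjusted p = 3.60e-05) and −3.59 ± 0.64 at ZT4 (adjusted p = 2.60e-05), and it was −0.998 ± 0.513 at ZT12 (adjusted p = 0.151) and −1.22 ± 0.52 at ZT16 (adjusted p = 0.0695). At ZT20 it was −1.38 ± 0.64 (adjusted p = 0.120, all in edgeR's quasi-likelihood test). These later calls depended on the scaling and on single libraries: with library totals Per2 passed at ZT12, ZT16 and ZT20 (adjusted p = 0.0425, 0.0167 and 0.0315), and it passed at ZT16 without spleen replicate A (0.0236) and at ZT20 without spleen replicate B (0.0498). Whether the gap itself changed over the day was tested as a difference in rhythm, given further on.

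Cry1 was called at ZT0, ZT12, ZT16 and ZT20, with the widest difference at ZT0 (1.38 ± 0.26, adjusted p = 5.92e-05), and Cry2 at ZT0, ZT4 and ZT20, with the widest difference also at ZT0 (−1.28 ± 0.33, adjusted p = 0.00304). At ZT0 all 5 members were called. Of the 20 calls, 14 held without any 1 library. The other 6 did not: Per3 at ZT0 was lost without VAT replicate C (adjusted p = 0.368) or without spleen replicate A (0.163) or C (0.0840) of that time, and Cry2 at ZT4 without VAT replicate B (0.148) or D (0.151) or spleen replicate B (0.0705) or C (0.115). Cry1 at ZT12 was lost without VAT replicate B or D or any 1 spleen library of that time (adjusted p 0.0689 to 0.114), and at ZT20 without VAT replicate A (0.0673) or C (0.0787) or spleen replicate C (0.0797). Cry2 at ZT20 was lost without VAT replicate A (0.188) or C (0.159) or spleen replicate A (0.304). Per2 at ZT8 was lost without any 1 VAT library, without spleen replicate B or C of that time (up to 0.144), or without any of 4 spleen libraries of other times (ZT0 A, ZT4 C and D, ZT16 C, up to 0.0511), all in edgeR's quasi-likelihood test. Of the 10 pairs not called, 5 passed without 1 library: besides Per2 at ZT16 and ZT20, these were Cry1 at ZT4 (without spleen ZT16 B, adjusted p = 0.0385), Cry1 at ZT8 (without spleen ZT16 B, 0.0147, or VAT ZT8 B, 0.0247) and Per3 at ZT20 (without spleen ZT20 C, 0.0372).

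**Figure D3:**
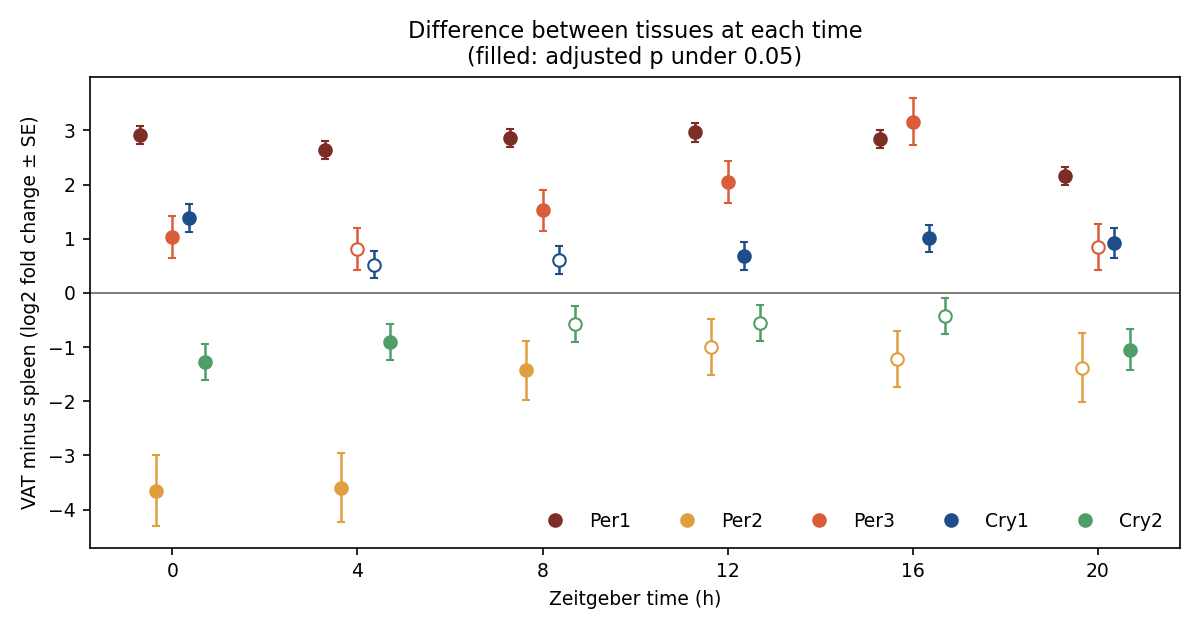
Difference between tissues (log2 fold change, VAT minus spleen, ± SE) at each Zeitgeber time in hours; filled points have an adjusted p under 0.05 and open points do not. Per1, Per3 and Cry1 lie above 0 and Per2 and Cry2 below 0 at all 6 times, and the Per2 difference runs from −3.65 at ZT0 to −0.998 at ZT12.

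Over the day, the libraries of the highest and of the lowest time did not overlap for 4 of 5 members in VAT (all but Cry2; 63.7% of all genes) and for 2 of 5 in spleen (Per1 and Per3; 55.2%). The largest ratio between those times was that of Per2 in VAT Tregs. At ZT0 the libraries had 0.999, 0.308 and 0.291 CPM and at ZT4 1.11, 0.989 and 0.501. At ZT8 they had 3.27, 2.27 and 3.22 CPM, at ZT12 3.26, 6.12 and 6.94, at ZT16 5.03, 2.21 and 5.26, and at ZT20 2.91 and 1.66. Every library of ZT8 to ZT20 was thus above every library of ZT0 and ZT4, while neighbouring times from ZT8 to ZT20 overlapped.

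The means were 0.533 ± 0.404 CPM at ZT0 and 5.44 ± 1.93 at ZT12, a ratio of 10.2. These levels rest on few reads: 6 counts over the 3 libraries of ZT0 (95% exact Poisson interval 2.20 to 13.1) and 58 over those of ZT12 (44.0 to 75.0), intervals that cover counting error only, since amplified copies are not independent molecules. Fitted with a cosine of 24 h, Per2 in VAT had a peak to trough amplitude of 3.04 ± 0.51 and a peak at ZT13.2 ± 0.633 h (adjusted p = 0.00453, edgeR's quasi-likelihood test). The call held without any 1 library (adjusted p 0.0016 to 0.0117), without the ZT20 libraries (amplitude 3.30, adjusted p = 0.0121) and with the transcript-length slope as a covariate (3.27, adjusted p = 0.00847). It was nearest the threshold in a fit of the VAT libraries alone (3.10, adjusted p = 0.0363, edgeR).

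Per2 was the 1 of 5 members called for the 24 h cosine in VAT, where 1.88% of all genes (299) were called. That background was 19 genes without the ZT20 libraries of both tissues and ran from 57 (without VAT ZT20 replicate A) to 987 when 1 library was left out. Per1 had an amplitude of 0.61 ± 0.15 with a peak at ZT13.0 ± 1.04 h (adjusted p = 0.0562) and Per3 1.27 ± 0.34 with a peak at ZT11.6 ± 1.05 h (adjusted p = 0.0718), both just outside the threshold. The Per1 fit passed without any 1 of 7 libraries: VAT ZT0 B or C, VAT ZT16 A or B, spleen ZT16 A or B, or spleen ZT20 C (adjusted p 0.0282 to 0.0440, edgeR). Fitted peaks of the 3 Period genes in VAT thus lay around lights off. Cry2 had 0.67 ± 0.28 (peak ZT11.2 ± 1.51 h, adjusted p = 0.307) and Cry1 0.18 ± 0.22 (adjusted p = 0.881), an amplitude below its standard error that gives no usable peak time.

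A test for any difference among the 6 times, which assumes no shape, called Per1 (adjusted p = 0.0152) and Per2 (adjusted p = 0.0119) in VAT, where 5.11% of genes (813) were called. The number of genes called fell to 67 without VAT ZT20 replicate A and to 141 without replicate C, and reached 1166 at most without 1 library, while Per1 and Per2 passed in every such fit. Per1 in VAT had 158, 167 and 155 CPM at ZT0, 134, 114 and 163 at ZT4, 188, 189 and 198 at ZT8, 267, 215 and 232 at ZT12, 174, 182 and 209 at ZT16, and 154 and 189 at ZT20. The 3 libraries of ZT12 lay above all other VAT libraries, and the remaining times overlapped with their neighbours in the order of means. The Per1 mean at ZT12 was 238 ± 26.9 CPM against 137 ± 24.5 at ZT4, a ratio of 1.74.

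Per3 in VAT had 12.2, 14.5 and 29.4 CPM at ZT0, 11.9, 16.3 and 22.3 at ZT4, 35.2, 41.1 and 31.0 at ZT8, 24.8, 38.3 and 49.3 at ZT12, 40.3, 28.5 and 21.5 at ZT16, and 20.4 and 14.1 at ZT20. ZT8 and ZT12 were high and ZT4 and ZT20 low, with overlap between every time and the next in the order of means (any change over time, adjusted p = 0.0716). Both tests on Per3 in VAT depended on single libraries: the cosine passed without VAT ZT0 replicate C, VAT ZT12 replicate A or spleen ZT20 replicate C (adjusted p down to 0.0100), and any change over time passed without either of these VAT libraries (down to 0.0236).

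The cryptochromes in VAT did not pass either test over time. Cry1 was highest at ZT0, with 128, 115 and 168 CPM, and those 3 libraries lay above the 3 of ZT16 (111, 112 and 112 CPM), the next time in the order of means. Its other VAT libraries ran from 73.6 to 135 CPM, and any change over time had an adjusted p of 0.532. Cry2 means lay between 13.4 ± 6.63 CPM (ZT0) and 21.6 ± 6.69 (ZT8), with overlapping libraries (adjusted p = 0.565).

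In spleen Tregs 0 of 5 members were called for the 24 h cosine, where 1.99% of genes (316, or 96 to 570 without 1 library) were called in edgeR's quasi-likelihood test; at an unadjusted p under 0.05, 1 of 5 members passed (Per1) and 2478 of all genes, and DESeq2 also called 0 of 5. Per1 had an amplitude of 0.56 ± 0.18 and a peak at ZT16.4 ± 1.16 h (adjusted p = 0.154). Per1 was the 1 member called for any change over time in spleen (adjusted p = 0.0145), where 2.02% of genes (322) were called, or 128 (without spleen ZT20 replicate C) to 760 without 1 library.

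Per1 in spleen had 23.6, 18.4 and 21.6 CPM at ZT0, 24.5, 19.9 and 21.9 at ZT4, 19.9, 26.4 and 31.5 at ZT8, 27.0, 32.6 and 32.0 at ZT12, 23.7, 26.2 and 28.7 at ZT16, and 34.6, 35.9 and 45.4 at ZT20. The 3 libraries of ZT20 lay above all other spleen libraries, which overlapped from 1 time to the next in the order of means. Without spleen ZT20 replicate C, the highest of them, the call was lost (adjusted p = 0.0863, edgeR). The ZT20 spleen libraries also had negative transcript-length slopes (−0.049 to −0.037). The test for any change over time was not refitted with that slope in either tissue.

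Per2 in spleen had no call over time, with an amplitude of 0.56 ± 0.42 (adjusted p = 0.751). Its libraries ran from 2.46 to 16.7 CPM, its means from 6.05 ± 3.22 CPM at ZT20 to 10.8 ± 5.12 at ZT12, and all neighbouring times overlapped. Within ZT12 alone the 3 libraries had 16.7, 8.14 and 7.52 CPM, and within ZT16 3.94, 13.5 and 11.2, so that replicates of 1 time were spread as widely as the times.

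Per3 in spleen was low at ZT16, with 5.02, 3.44 and 1.72 CPM. All other spleen libraries had 5.67 to 16.04 CPM, so ZT16 lay below every other time. The 24 h cosine gave an amplitude of 0.94 ± 0.38 with a peak at ZT4.80 ± 1.43 h (adjusted p = 0.340), and any change over time an adjusted p of 0.125. The ZT16 value rests on 33 counts in 3 libraries.

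Cry1 in spleen had means between 48.1 ± 15.97 CPM at ZT20 and 69.3 ± 8.16 at ZT8, and Cry2 between 28.1 ± 12.1 at ZT16 and 32.8 ± 5.79 at ZT0, with overlapping times throughout. Their amplitudes were 0.53 ± 0.21 (adjusted p = 0.330) and 0.21 ± 0.25 (adjusted p = 0.906). Replicate B of ZT16 was the lowest spleen library for both genes, at 23.3 CPM for Cry1 beside 74.6 and 69.8 in the other two, and at 15.9 for Cry2 beside 40.1 and 28.1. Replicate C of ZT20 was the next lowest for both, at 32.4 and 19.8 CPM.

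**Figure D4:**
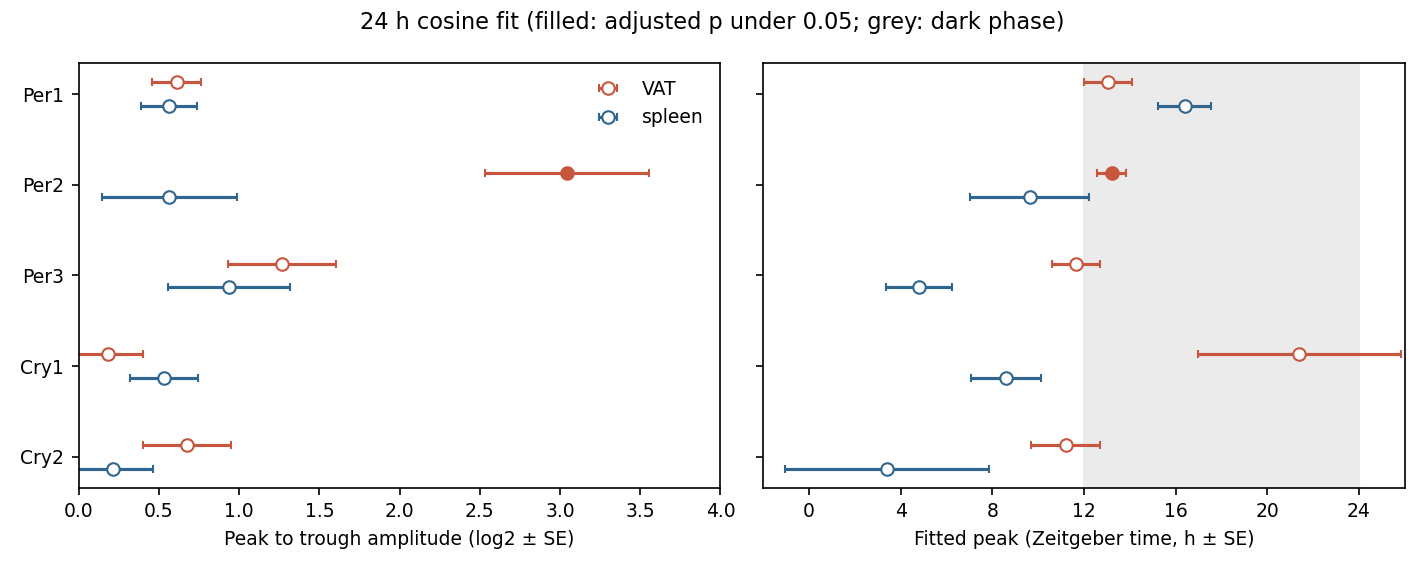
Fit of a 24 h cosine to each gene: peak to trough amplitude on the log2 scale (left) and fitted peak in Zeitgeber hours (right), each ± SE, in VAT and spleen; filled points have an adjusted p under 0.05. Per2 in VAT is the 1 filled point (amplitude 3.04, peak at ZT13.2 h), and the peaks of Cry1 in VAT and Cry2 in spleen, whose amplitudes are below their errors, are not usable.

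The difference in rhythm between tissues was called for 0 of 5 members, and 0.00629% of all genes (1 gene, or 26 without the ZT20 libraries) were called, so this test had few calls anywhere. The difference between the fitted cosines of VAT and spleen had an amplitude of 2.75 ± 0.64 for Per2 (adjusted p = 0.207) and of 1.73 ± 0.51 for Per3 (adjusted p = 0.342), and both were among the 1447 genes with an unadjusted p under 0.05 in edgeR's quasi-likelihood test; DESeq2 called 22 genes and 0 of the 5 members. For Per1, Cry1 and Cry2 the adjusted p ran from 0.598 to 0.640. That Per2 was called over time in VAT and not in spleen is therefore not shown to be a difference between the tissues by this test.

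Pairs of times 12 h apart within a tissue gave 30 tests on the members, of which 0 were called in edgeR's quasi-likelihood test, 10 had an unadjusted p under 0.05, and DESeq2 called 4. Called genes were 0.0503% for ZT12 against ZT0, 0.0314% for ZT16 against ZT4 and 14.0% for ZT20 against ZT8 in VAT, and 0.0817%, 0.126% and 3.56% in spleen. The nearest to the threshold were Per2 in VAT, 3.20 ± 0.67 higher at ZT12 than at ZT0 (adjusted p = 0.0519), and Per1 in spleen, 0.55 ± 0.17 higher at ZT20 than at ZT8 (adjusted p = 0.0554).

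Levels of 2 members were compared across the libraries of a tissue, 20 relations in all, with permutation tests of 100000 draws and Benjamini-Hochberg adjustment over the 20. In VAT Per1 and Per2 moved together (Pearson r = 0.642, adjusted p = 0.0466; Spearman rho = 0.730, adjusted p = 0.0248; n = 17), and r was 0.723 without the 2 libraries farthest from the Per1 median. Taken as deviations from the mean of each time r was −0.426, so the relation held between times and not between replicates of a time. The permutations treated the 17 libraries as exchangeable, while libraries of a time are not independent for a relation that lies between times. The adjusted p-values of this pair therefore overstate the evidence, and they do not decide whether Per1 and Per2 are related. Per2 and Per3 in VAT had r = 0.618 (adjusted p = 0.0617) and Per1 and Per3 r = 0.544 (adjusted p = 0.0911), which did not pass. In spleen Cry1 and Cry2 had r = 0.695 (adjusted p = 0.0408, permutation test) but rho = 0.408 (adjusted p = 0.368). As deviations from the mean of each time r was 0.751, so this relation was also present between replicates of a time. Without the 2 libraries farthest from the Cry1 median r was 0.145, so that the relation rests on those. All members were measured in the same libraries, and each letter held too few libraries for values within it.

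The genes most like each member were ranked by Pearson's r over all 35 libraries after taking away each tissue's mean, among 12773 genes with at least 1 CPM in both tissues, as a description without a test. For Per3 they were Helq (0.69), Lrrtm2, Paqr8, Tef (0.63) and Ankrd16. For Per1 they were Slc25a3 (0.68), Prmt2, Gps1, Ppp2r1a and Ccnd3, and for Per2 Adgre5 (0.59), Kctd12b, Ahcyl2, Nsg2 and Vhl. For Cry1 they were Ak3 (0.72), Prxl2c, Insig1, Afg3l2 and Snrk, and for Cry2 Trappc13 (0.67), Nedd4l, Gm43201, Dgcr2 and Cog1. None of the 5 was among the genes most like another, and these libraries share depth and RNA quality as well as time.

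The other genes of the loop were set beside the repressors. These lists and those of signals below were chosen with earlier results of these data known. Their counts against all genes are therefore a description and not an independent test. Of 8 genes of the activator arm, 6 were higher in VAT and 0 lower (median difference 1.44, against −0.10 over all genes, of which 28.4% were higher and 33.8% lower), among them Rora (4.13 ± 0.07) and Nr1d1 (2.65 ± 0.18), which encode activating and repressing receptors of the Arntl promoter. Of 7 clock outputs, 5 were higher and 0 lower (median 1.34), with Hlf at 3.86 ± 0.26 and Nfil3 at 3.79 ± 0.22. Of 21 tested partners of PER and CRY proteins, 8 were higher and 6 lower (median 0.13), 14 called where 62.2% of all genes were, among them Csnk1e, a PER kinase, at 1.17 ± 0.19, and Timeless at −1.28 ± 0.14.

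Over time in VAT, Arntl peaked at ZT0.24 ± 0.892 h (amplitude 0.76 ± 0.17, adjusted p = 0.0278), Nr1d2 at ZT9.43 ± 0.870 h (1.85 ± 0.44, adjusted p = 0.0480) and the D-box factor Tef at ZT10.3 ± 0.492 h (1.56 ± 0.22, adjusted p = 0.000613), beside the Per2 peak at ZT13.2. These were 2 of 8 of the activator arm and 1 of 7 of the outputs, and 0 of 21 partners were called, against 1.88% of all genes (57 to 987 genes without 1 library), in edgeR's quasi-likelihood test. Genes called were 47 with VAT alone, 27 with the length slope and 19 without the ZT20 libraries. Calls of single list genes, here and below, were not followed in these alternatives. In spleen the calls were Npas2, at 0.411 ± 0.768 CPM, and Tef with a peak at ZT6.54 ± 0.657 h (1.18 ± 0.20, adjusted p = 0.00478), with 0 of 21 partners, against 1.99% of all genes. The difference in rhythm was called for 0 genes of each of these lists.

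Gene lists for signals to which Per1 and Per2 are known to respond were counted in the same way, against the same 28.4% of all genes higher and 33.8% lower. Of 20 immediate early genes, 19 were higher in VAT and 1 lower (median 4.14), with Fos at 6004 ± 1178 CPM in VAT and 12.6 ± 8.77 in spleen. Of 12 glucocorticoid-responsive genes, 8 were higher and 2 lower (median 1.48). Per1 and Per2 differed in opposite directions beside these values, whose part in the members' levels was not tested.

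Over time, Tsc22d3, a glucocorticoid-induced gene, was called in both tissues, with peaks at ZT12.3 ± 0.743 h in VAT and ZT12.6 ± 0.419 h in spleen (amplitudes 0.84 ± 0.16 and 1.42 ± 0.16, adjusted p = 0.0103 and 2.61e-06, edgeR). In all, 3 of the 12 glucocorticoid-responsive genes were called in VAT and 4 in spleen, and 0 and 1 of the 20 immediate early genes, against 1.88% of all genes in VAT and 1.99% in spleen (57 to 987 and 96 to 570 genes without 1 library). Since both lists were chosen with earlier results of these data known, these counts only describe the lists. In spleen the called genes peaked between ZT12.6 and ZT14.4 for the first list and at ZT15.8 for Junb of the second, beside the Per1 fit at ZT16.4 that did not pass. The difference in rhythm was called for 0 genes of both lists.

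Markers of other cell types that a sort can carry along also differed between the tissues. B cell markers (5 genes) summed to 177 ± 56.6 CPM in VAT (93.6 to 302) and 1840 ± 481 in spleen (1197 to 3084), and endothelial markers (3 genes) to 33.7 ± 8.60 and 258 ± 45.7. Stromal or mesothelial markers (5 genes) summed to 95.4 ± 18.7 CPM in VAT (72.1 to 144) and 5.20 ± 3.12 in spleen (0.689 to 10.4). Lrrn4 alone made up 91.8 and 3.67 CPM of these means, while Col1a1, Col3a1 and Pdgfra were at 0.886 to 1.60 CPM in VAT and Msln at 0.0604 in VAT and 0.154 in spleen, so this sum is 1 gene and not the list. Adipocyte markers (4 genes) summed to 0.360 ± 0.476 CPM in VAT and 0.732 ± 0.760 in spleen. No marker of these lists was at 0 in all libraries of a tissue, and their part in the members' differences was not tested. In sorted cells taken in bulk, fewer cells with a transcript and less of it per cell cannot be told apart.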

How the data were processed

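Raw counts of read pairs per gene symbol were deposited by the authors for 35 libraries; the submitters' processing notes name STAR 2.7.3a, featureCounts and mm10, with the annotation and strand setting not given in the sources used here. Per the labels' protocols, oligo-dT primed cDNA was amplified, fragmented with Nextera XT and sequenced as paired reads of 25 bases, with no molecular identifiers named. 52936 of 55011 symbols matched GENCODE M21, which gave lengths and positions.

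Genes were kept by filterByExpr over the 12 groups and scaled by TMM in edgeR 4.0.16 (R 4.3.3). Robust quasi-likelihood fits gave the contrasts between group means, and a cosine and sine of 24 h per tissue in 1 model (2 degrees of freedom) gave rhythms. Scripts were tested on simulated data. DESeq2 1.42.0, library totals, no filter, a replicate block, a length covariate and leaving out each library were alternatives. Log2 CPM for correlations used a prior count of 2. All 34 within-group pairs of libraries differed by more than Poisson sampling of independent counts (chi-square per gene 4.12 to 20.6). Amplified copies are not independent, so these values do not show whether replicates were separate samples. VAT and spleen carry the same letters at every time but ZT20, and whether a letter marks the same mice is not in the labels. Of 17 pairs of VAT and spleen libraries of the same time and letter, 0 had a correlation of deviations over 0.1. Deviations from means of 2 or 3 libraries cannot decide whether such pairs share mice. The main fits left the letters out. In a fit that paired VAT and spleen by time and letter, all 5 members kept their direction and call over all times. The members and gene lists were chosen with earlier results of these data known. Named genes were the members, the called list genes with the largest change (at most 4 per list and comparison), the 5 genes most like each member and genes overlapping a member.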

Additional observations from a re-analysis of the deposited data

How the results depend on the processing

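Library totals in place of TMM moved the median difference of all genes between tissues by −0.34 (log2), and relative to that median the 5 members' differences were 2.83 (Per1), −1.94 (Per2), 1.67 (Per3), 0.95 (Cry1) and −0.70 (Cry2), with the directions and calls over all times as before. Apart from leaving out 1 library, 172 alternatives on the members' results over all times and on the counts of calls left 158 on their side of the threshold, 10 passed it newly, 4 moved a count and 0 reversed; of 270 on single times and counts of genes, 226 were kept, 5 lost the threshold, 15 passed it and 24 moved. With no filter on low counts and with DESeq2, Per3 passed for any change over time in VAT (adjusted p = 0.00315 and 0.0257) and spleen (0.00851 and 0.0348), and for the cosine in VAT Per1 (amplitude 0.63 and 0.60; adjusted p = 0.0386 and 0.0154) and Per3 (1.29 and 1.27; 0.00665 and 0.0238). With no filter the difference in rhythm passed for Per2 (2.77) and Per3 (1.75). DESeq2 gave no adjusted p for the Per2 cosine in VAT (amplitude 3.07, unadjusted p = 1.08e-07). Calls 12 h apart numbered 1 with library totals, 2 with no filter, 1 with the replicate block and 4 with DESeq2. Per1 and Per2 in VAT had r = −0.43 as deviations from time means, an alternative chosen after seeing the data like the others on correlations; the causes of these changes were not tested.

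Leaving out 1 library gave ranges of 0.0236 to 0.186 (Per3, any change in VAT, adjusted p), 0.00659 to 0.0863 (Per1, any change in spleen, lost without spleen ZT20 C), 0.55 to 0.68 (Per1 amplitude in VAT), 1.18 to 1.65 (Per3 amplitude in VAT) and 0 to 2 calls 12 h apart. Uncalled differences 12 h apart changed sign: Cry1 in VAT, ZT20 minus ZT8 (−0.40 to 0.037); in spleen Per3, ZT12 minus ZT0 (−0.29 to 0.24), Per2, Cry1 and Cry2, ZT16 minus ZT4 (−0.46 to 0.23, −0.47 to 0.17 and −0.52 to 0.12) and Cry2, ZT20 minus ZT8 (−0.54 to 0.10).

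With the replicate block Per2 at ZT8 was lost (adjusted p = 0.0641, edgeR), and genes called for the cosine fell to 124 in VAT and 171 in spleen. What the letters stand for is not in the labels. Genes called for the cosine in VAT were 196 with library totals, 1572 with no filter, 663 with DESeq2, 47 with VAT alone, 27 with the length slope, 19 without the ZT20 libraries, and 57 to 987 without 1 library; in spleen 1446 with no filter, 853 with DESeq2, 506 with spleen alone, 106 with the length slope, and 96 to 570. With no filter, DESeq2 and the block, any change called 1493, 1744 and 448 genes in VAT and 1083, 1217 and 186 in spleen, and the difference in rhythm 1547, 22 and 0 (26 without ZT20). Without 1 library any change called 67 to 1166 genes in VAT and 128 to 760 in spleen. With library totals the calls of Per3 at ZT0 and of Cry1 at ZT12 and ZT20 were lost, and Per2 at ZT12, ZT16 and ZT20 and Cry2 at ZT8 and ZT12 passed. With no filter Per2 at ZT8 was lost (−1.40, adjusted p = 0.149, edgeR). Cry1 at ZT4 (adjusted p = 0.0420) and ZT8 (0.0178) passed in that setting. The few counts of Per2 in VAT limit its precision.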
